A study of Mus musculus with 55 samples.

Results

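The genes described here are 9 feedback inhibitors of MAPK signalling: Dusp1, Dusp4, Dusp5, Dusp6, Dusp14, Spry2, Spry4, Spred1 and Spred2. They were chosen by name, as the DUSP, SPRY and SPRED genes listed for this purpose, out of 29684 genes with a symbol in either of 2 count tables of primary mouse neurons. Where a gene had several transcripts, the one with the highest total count was used. Of the 9 genes, 8 exceeded 5 CPM in at least 2 samples of each experiment and were tested. CPM are counts scaled to a common library size, here after normalisation by the TMM method. Dusp5 had 33 counts over all samples of the maturation experiment and 9 over all samples of the stimuli experiment, and was not tested.

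RNA was measured in neurons cultured from cortex and hippocampus of CD1 mouse embryos of mixed sex, without genetic modification. In the maturation experiment, 28 samples were taken at 7 days in vitro (7DIV) or at the stage called 21DIV, which the labels give as 23 DIV. They were basal, or stimulated for 15 or 180 min with 55 mM KCl, which depolarises the membrane, or with 50 μM bicuculline (Bic), which blocks GABA-A receptors, given with 2.5 mM 4-aminopyridine, which blocks potassium channels. Each of these conditions had 3 samples, except Bic with 4-aminopyridine at 21DIV, with 2 at each time. In the stimuli experiment, 27 samples were taken at 21DIV. Cultures were basal (n = 3), or received KCl or Bic alone for 15, 45 or 180 min (n = 2 at each time), or were silenced for 48 h with 1 μM TTX, a blocker of voltage-gated sodium channels. Silenced cultures were taken as basal TTX (n = 4) or 15, 45 or 180 min after the TTX was washed out (TTXw, n = 3, 2 and 3). The washout used repeated exchanges with fresh medium, and the study states that control neurons were washed in the same way. KCl and Bic were instead added to the medium the cells were kept in, with a small part of it replaced. The labels do not say whether samples of a condition came from separate dissections, so p-values measure the spread between these samples. In bulk RNA, fewer cells of a type and less RNA per cell cannot be told apart.

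Activated receptor tyrosine kinases and calcium entry switch on the small GTPase Ras, which starts a chain of kinases from Raf through MEK to ERK, a MAP kinase. In neurons, ERK carries signals from synapses to the nucleus, where it promotes transcription of early genes such as Fos, Egr1 and Arc. The pathway also raises transcription of its own inhibitors. Dual-specificity phosphatases (DUSP) remove phosphate from ERK or from the related kinases p38 and JNK. Sprouty (SPRY) proteins act between receptors and Raf, and SPRED proteins bring the Ras inhibitor neurofibromin to the membrane.

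Depth, counted as reads on the genes' main transcripts, ranged from 1659722 to 4474968 at 7DIV, from 1784170 to 14012872 at 21DIV of the maturation experiment and from 1177500 to 3909487 in the stimuli experiment. A gene is called below where the quasi-likelihood test of edgeR gave an adjusted p under 0.05 (Benjamini-Hochberg, over every gene tested) and the change was at least 1.5-fold. Differences between responses needed only the adjusted p. Log2 fold changes are given with their standard error (SE). Markers of neurons (9 of 9 genes), astrocytes (10 of 10) and the oligodendrocyte lineage (9 of 9) were counted in both experiments. Microglia markers stayed between 0.715 and 20.5 CPM in sum, so that cells of this type were nearly absent by this measure. No listed neuron marker was at 0 in any condition.

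The promoters of the set are shown first for the genes whose windows held one of the motifs searched, with Dusp6 as a gene without any. The DNA element CRE binds CREB, AP-1 sites bind Fos and Jun proteins, and CArG boxes bind serum response factor. RefSeq windows of GRCm38.p6, from 250 bases before to 50 after a start site of the gene, were given for 7 of the 9 genes, and not for Dusp4 and Spry4. They were searched on both strands for TGACGTCA (CRE), for its core TGACG, which every CRE also holds, for TGAGTCA (AP-1) and for the CArG box. Of 32851 windows of all genes, 1.79% held a CRE, 20.8% the core, 5.2% an AP-1 site and 1.63% a CArG box. The 250 bases before the start are printed 5′ to 3′ on the strand of the gene, with the matches in capitals. Dusp1 lies at chr17:26508473-26508722 (minus strand), Dusp5 at chr19:53528895-53529144 (plus strand), Spred2 at chr11:19924192-19924441 (plus strand) and Dusp6 at chr10:99262981-99263230 (plus strand).
Dusp1 promoter: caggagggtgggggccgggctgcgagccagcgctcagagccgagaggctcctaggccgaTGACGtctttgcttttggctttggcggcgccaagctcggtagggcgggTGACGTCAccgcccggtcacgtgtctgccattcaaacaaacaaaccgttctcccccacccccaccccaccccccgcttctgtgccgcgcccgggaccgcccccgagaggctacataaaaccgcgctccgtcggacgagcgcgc
Dusp5 promoter: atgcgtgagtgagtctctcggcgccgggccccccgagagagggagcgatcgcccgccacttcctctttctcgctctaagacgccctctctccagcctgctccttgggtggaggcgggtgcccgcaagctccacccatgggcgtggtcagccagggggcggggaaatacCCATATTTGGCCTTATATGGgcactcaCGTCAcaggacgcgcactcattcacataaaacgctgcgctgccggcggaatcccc
Spred2 promoter: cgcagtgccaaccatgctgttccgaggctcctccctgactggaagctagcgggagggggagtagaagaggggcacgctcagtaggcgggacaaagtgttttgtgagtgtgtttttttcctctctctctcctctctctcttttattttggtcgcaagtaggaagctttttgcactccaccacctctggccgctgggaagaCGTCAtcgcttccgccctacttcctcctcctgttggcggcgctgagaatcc
Dusp6 promoter: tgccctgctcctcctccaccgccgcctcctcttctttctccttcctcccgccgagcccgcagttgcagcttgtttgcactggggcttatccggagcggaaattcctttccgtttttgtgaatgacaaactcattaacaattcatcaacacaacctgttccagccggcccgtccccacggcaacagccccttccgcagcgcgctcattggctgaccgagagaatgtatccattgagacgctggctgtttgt
With positions counted from the start of the gene, the Dusp1 window held a CRE at -143 and a separate core at -191. The Dusp5 window held CArG boxes at -82 and -72, side by side, and a core at -55. The Spred2 window held a core at -51. None of the 4 motifs was found in the windows of Dusp6, Dusp14, Spry2 and Spred1. These matches are descriptions of sequence and say nothing about binding in these cells. For Dusp14, on the minus strand, the 250 bases lie at chr11:84068358-84068607, before a start inside the gene, which reaches to 84069256. The bases before the outer end of Dusp14 were not searched.

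Silencing with TTX went with lower levels of 6 of the genes and with higher Spred1. Of the 8 tested, Dusp1, Dusp4, Dusp6, Spry2, Spry4 and Spred2 fell in basal TTX against basal cultures, Spred1 rose, and Dusp14 was not called. Among all 12027 genes tested, 21.6% were called in this comparison, 10.8% in each direction. The median log2 fold change was -1.21 over the 8 genes and 0.00 over all genes tested.

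Dusp6, a phosphatase of the cytoplasm that acts on ERK, fell the most clearly relative to its error. Its level was 80.4, 87.0 and 69.7 CPM in the basal samples and 9.92, 10.4, 13.5 and 14.4 CPM after TTX. The groups were far apart, and the log2 fold change was -2.68 (SE 0.19, adjusted p = 4.9e-14), a 6.41-fold lower level. Dusp1, a nuclear phosphatase of p38, JNK and ERK and itself an early gene, had 39.6, 38.9 and 55.8 CPM in basal samples and 9.26, 7.51, 7.11 and 8.99 CPM after TTX. Its log2 fold change was -2.41 (SE 0.22, adjusted p = 2.47e-11). Dusp4, the close nuclear relative of Dusp1, had 14.2, 24.1 and 18.5 CPM in basal samples and 1.32, 1.16, 2.85 and 4.31 CPM after TTX, the last from 2, 2, 4 and 12 counts. It fell by 2.79 on the log2 scale (SE 0.41, adjusted p = 8.17e-07), and no sample of one group reached the other.

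The Sprouty genes and Spred2 fell by less on the log2 scale. Spry4 had 9.12, 6.29 and 10.9 CPM in basal samples and 1.98, 2.31, 2.85 and 3.596 CPM after TTX. The groups did not overlap, with a log2 fold change of -1.63 (SE 0.38, adjusted p = 0.00102). Spry2 ranged from 29.4 to 44.5 CPM in basal samples and from 16.4 to 24.8 CPM after TTX. It fell by 0.78 on the log2 scale (SE 0.19, adjusted p = 0.00171). Without basal replicate 1, the highest of its group, the log2 fold change was -0.57, under 1.5-fold. Spred2, which restrains Ras through neurofibromin, ranged from 14.1 to 18.1 CPM in basal samples and from 8.09 to 10.4 CPM after TTX. It fell by 0.74 on the log2 scale (SE 0.22, adjusted p = 0.00849), and without basal replicate 5 the adjusted p was 0.052. With counts thinned to the smallest library neither Spry2 nor Spred2 was called. Spred2 was also not called with the replicate number as a block.

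Spred1, the relative of Spred2, moved the other way. It had 147, 183 and 177 CPM in basal samples and 251, 245, 343 and 295 CPM after TTX, with every silenced sample above every basal one. Its log2 fold change was 0.75 (SE 0.12, adjusted p = 2.68e-06). Dusp14, an atypical DUSP that lacks the kinase-binding domain of the classical MAP kinase phosphatases, had 29.4, 34.8 and 25.2 CPM in basal and 29.8, 34.6, 47.7 and 39.9 CPM in basal TTX samples. The groups overlapped, and the 95% interval of its log2 fold change ran from -0.03 to 0.73.

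Glial markers moved with the same contrast. All 10 astrocyte markers were higher after TTX, and their summed level was 2610 to 3200 CPM in basal and 7370 to 8420 CPM in basal TTX samples, with none of them at 0. In the oligodendrocyte lineage 5 of 8 tested markers were higher, with sums of 752 to 1190 and 2090 to 2160 CPM. Of 9 neuron markers 2 were lower, with sums of 5320 to 5590 and 4500 to 4990 CPM. Both tested markers of endothelial, mural and fibroblast cells were higher, with sums of 24.8 to 31.7 and 34.1 to 65.8 CPM, and 1 of 2 tested microglia markers was lower. The part of these markers in the changes of the set was not tested.

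**Figure D1:**
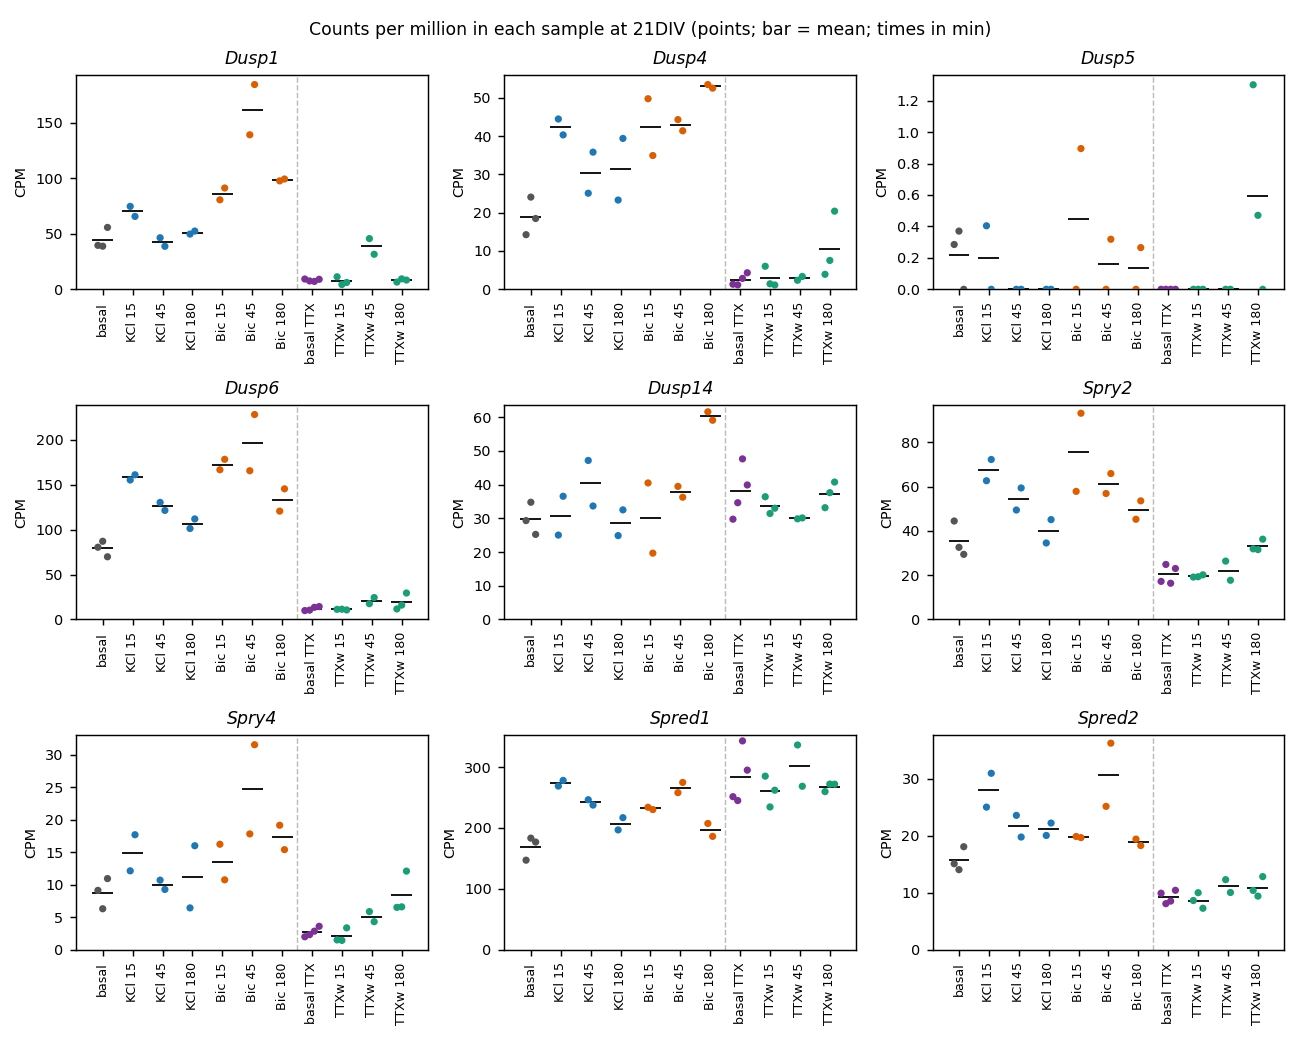
Level of the 9 genes in the stimuli experiment at 21DIV, as CPM (linear axis from 0) against condition, with points for samples, a bar for the mean, and times in min after the start of KCl, Bic or TTX withdrawal (TTXw). In basal TTX, just right of the dashed line, every sample of Dusp1, Dusp4, Dusp6, Spry2, Spry4 and Spred2 lay below the basal samples. Every sample of Spred1 lay above them. For example, Dusp6 had 9.92 to 14.4 CPM in basal TTX against 69.7 to 87.0 CPM in basal samples. Dusp5 reached at most 1.3 CPM in any condition.

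Other genes of the pathway were counted in the same contrast. Of 11 tested early genes downstream of ERK, 8 fell and 0 rose after TTX, among them Fos (log2 fold change -2.32), Egr4 (-2.15), Fosb (-1.88) and Egr1 (-1.73). Of 8 other tested DUSP, SPRY and SPRED genes 2 fell, Dusp2 by 2.43 and Spred3 by 1.34 on the log2 scale, and 0 rose. Among ERK cascade kinases and scaffolds 3 of 14 tested members were called, with Braf 1.10 and Rps6ka3 1.02 lower and Rps6ka5 2.31 higher on the log2 scale.

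In the stimuli experiment, KCl raised 6 and Bic 4 of the 8 tested genes at 15 min. The values of the maturation experiment at 21DIV, where KCl at 15 min called 0 of 8, are given further on. The 6 genes at 15 min of KCl were Dusp1, Dusp4, Dusp6, Spry2, Spred1 and Spred2. Of all genes tested 7.22% were called in that contrast, with 4.52% of all genes called upward. At 45 min of KCl only Dusp6 of the 8 was called (0.765% of all genes), and at 180 min 0 of 8 were, against 0.765% of all genes. In the 180-min contrast Dusp4, Dusp6 and Spred1 had an unadjusted p under 0.05, and DESeq2 and the likelihood ratio test of edgeR also called 0.

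Under Bic, 4 of the 8 were called at 15 min (3.42% of all genes), 7 at 45 min (7.45%) and 4 at 180 min (0.765%), each of them upward. The upward shares of all genes were 2.40%, 4.50% and 0.690%. The median log2 fold change over the 8 genes was 0.81, 1.08 and 0.86 at the 3 times, beside -0.01 over all genes tested each time. All these contrasts share the 3 basal samples, so a value that is high or low there enters each of them.

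Dusp1 showed the widest swing. Its level was 80.7 and 91.3 CPM at 15 min of Bic, 139 and 185 CPM at 45 min and 97.8 and 99.4 CPM at 180 min, each pair above the basal range of 38.9 to 55.8 CPM. The log2 fold changes were 0.93 (SE 0.19, adjusted p = 0.00196), 1.86 (SE 0.18, adjusted p = 4.24e-10) and 1.14 (SE 0.18, adjusted p = 5.65e-05). Under KCl it had 74.8 and 65.7 CPM at 15 min, 46.5 and 38.7 CPM at 45 min and 49.8 and 52.5 CPM at 180 min, so that at 45 and 180 min it overlapped the basal samples. The rise at 15 min was 0.65 on the log2 scale (SE 0.19, adjusted p = 0.0197). Thinning counts to the smallest library or summing them over transcripts lost this call. That call was lost when basal replicate 1 (adjusted p = 0.0811), basal replicate 2 (0.0602), KCl replicate 1 (0.129) or KCl replicate 2 (0.0537) was left out.

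The step from 15 to 45 min of Bic was itself called for Dusp1 (log2 fold change 0.93, SE 0.20, adjusted p = 0.0249), as 1 of 8 genes beside 0.141% of all genes. So was the fall from 45 to 180 min (-0.72, SE 0.19, adjusted p = 0.0214), as 1 of 8 beside 3.04%. Both steps rest on 2 samples a time. Both calls were lost with thinned counts, with counts summed over transcripts and with the replicate number as a block. Dusp1, Dusp4 and Dusp6 had 1 transcript each, so for them summing changed only other genes and the library sizes. Without Bic 45 min replicate 2 the steps were 0.70 (adjusted p = 0.553) and -0.49 (adjusted p = 0.308), and leaving out either sample at 15 min or at 180 min also took the adjusted p above the threshold, to 0.136 and 0.282 or 0.152 and 0.182. None of the 8 genes was called between consecutive times of KCl (0.416% and 0.141% of all genes), by edgeR, DESeq2 or the likelihood ratio test. From 15 to 45 min 1 of the 8, Dusp1, had an unadjusted p under 0.05 (0.00151, adjusted p = 0.14), and from 45 to 180 min 0 did. From 45 to 180 min of Bic, Dusp6 (-0.79, adjusted p = 0.0395) and Spred2 (-0.96, adjusted p = 0.0488) were called lower when Bic 45 min replicate 1 was left out.

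Dusp6 had a flatter course. It had 155 and 161 CPM at 15 min of KCl, 130.2 and 121 CPM at 45 min and 101 and 112 CPM at 180 min, all above the basal samples. The log2 fold changes were 1.00 (SE 0.17, adjusted p = 7.41e-05), 0.67 (SE 0.17, adjusted p = 0.0417) and 0.43 (SE 0.18, adjusted p = 0.295). The 45-min call of KCl was lost without basal replicate 1 (adjusted p = 0.121), basal replicate 5 (0.194), KCl replicate 1 (0.368) or KCl replicate 2 (0.142). Under Bic, Dusp6 had 166 and 178 CPM at 15 min, 165 and 228 CPM at 45 min and 120.5 and 145 CPM at 180 min, again above basal throughout. Its log2 fold changes there were 1.12 (adjusted p = 4.7e-05), 1.32 (adjusted p = 3.53e-07) and 0.75 (adjusted p = 0.00919). Without basal replicate 5 (adjusted p = 0.0939) or Bic replicate 3 the 180-min value of Dusp6 was no longer called. Nor was it with counts summed over transcripts or with the replicate number as a block. The lowest log2 fold change under the alternative settings was 0.44. The 45-min call of KCl was lost under both of these settings and with thinned counts.

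Dusp4 stayed up to the last time of Bic. It had 49.7 and 34.9 CPM at 15 min, 44.3 and 41.4 CPM at 45 min and 53.4 and 52.5 CPM at 180 min, all above the basal samples. The log2 fold changes were 1.22, 1.19 and 1.5, with adjusted p of 0.014, 0.00633 and 0.00113. Under KCl it had 44.4 and 40.3 CPM at 15 min and rose by 1.17 on the log2 scale (SE 0.29, adjusted p = 0.00688), while the values at 45 and 180 min, 0.69 and 0.77, were not called. The 15-min calls were lost without basal replicate 1 (adjusted p = 0.0525 for KCl and 0.0827 for Bic), without KCl replicate 1 (0.0524) and without Bic replicate 2 (0.36). With DESeq2 the Dusp4 calls at 15 min of both stimuli and at 45 and 180 min of Bic were also lost (adjusted p = 0.111, 0.162, 0.102 and 0.14). With counts summed over transcripts their adjusted p reached 0.214, though summing left the counts of Dusp4 itself as they were.

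Dusp14 was called only at 180 min of Bic. It had 61.6 and 59.1 CPM there and 25.2 to 34.8 CPM in basal samples, and the log2 fold change was 1.02 (SE 0.20, adjusted p = 0.00211). In the other 5 contrasts of KCl and Bic its log2 fold changes lay between -0.03 and 0.45. At 15 min of Bic its samples were 40.5 and 19.7 CPM, on both sides of the basal samples. The call was lost with thinned counts (1.07, adjusted p = 0.0917) and with the replicate number as a block (0.88, adjusted p = 0.113). Dusp14 had 5 transcript models, of which 4 held the same 2285 counts in the stimuli experiment and the last had 64.3% of that.

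Spry2 and Spry4, inhibitors that act between receptor and Raf, were called at 15 and 45 min only. Spry2 had 62.6 and 72.2 CPM at 15 min of KCl and 57.8 and 93.1 CPM at 15 min of Bic, above the 29.4 to 44.5 CPM of basal samples. The log2 fold changes were 0.92 (SE 0.19, adjusted p = 0.00143) and 1.02 (SE 0.20, adjusted p = 0.00141), and at 45 min of Bic 0.78 (SE 0.20, adjusted p = 0.00732). Spry2 lost these calls without KCl replicate 2 (adjusted p = 0.0505), without Bic 15 min replicate 3 (0.0941), and at 45 min without basal replicate 5 (0.0532) or Bic replicate 2 (0.133). Spry4 was called at 45 min of Bic, with 17.8 and 31.5 CPM against 6.29 to 10.9 CPM in basal samples and a log2 fold change of 1.5 (SE 0.30, adjusted p = 0.000763). Without replicate 2, the higher of the 2 samples, it was 1.05 with an adjusted p of 0.159.

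Spred1 and Spred2 were called together at 15 min of KCl and at 45 min of Bic. Spred1 had 269 and 278.0 CPM, and 258 and 275 CPM, at those times, against 147 to 183 CPM in basal samples. Its log2 fold changes were 0.70 (SE 0.13, adjusted p = 0.0005) and 0.66 (SE 0.13, adjusted p = 0.000847), and both calls held whichever sample was left out. Spred2 had 25.1 and 30.99 CPM, and 25.2 and 36.3 CPM, against 14.1 to 18.1 CPM. Its log2 fold changes were 0.84 (SE 0.21, adjusted p = 0.00793) and 0.98 (SE 0.21, adjusted p = 0.0017), but without replicate 2 of KCl or of Bic they were 0.71 in both cases, with adjusted p of 0.178 and 0.166. At 15 min of Bic, Spred1 had an adjusted p of 0.0472 but a change of 1.38-fold, and at 45 min of KCl an adjusted p of 0.0497 and 1.43-fold, both under the fold threshold. Without basal replicate 2 the 45-min value of KCl was called (0.61, adjusted p = 0.0284).

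Astrocyte markers again moved with these contrasts. Their summed level was 4730 to 4770 CPM at 15 min of KCl, 4510 to 4820 CPM at 15 min of Bic and 5160 to 5850 CPM at 45 min of Bic, all above the basal range of 2610 to 3200 CPM. It was also above that range at 45 min of KCl (4350 CPM, 2 of 10 markers called higher) and at 180 min of KCl (3600 to 3610 CPM, 0 called), where 1 and 0 of the 8 genes were called. At 15 min of KCl and at 15 and 45 min of Bic 4, 2 and 6 of 10 astrocyte markers were called higher, and 4, 2 and 4 of 8 oligodendrocyte lineage markers. At 180 min of Bic 0 markers of either list were called, and the sum of the astrocyte list was 3090 to 3430 CPM. Neuron markers summed to 6520 to 7250 CPM at 15 min of KCl and to 5320 to 5590 CPM in basal samples. The part of these shifts in the calls of the set was not tested.

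**Figure D2:**
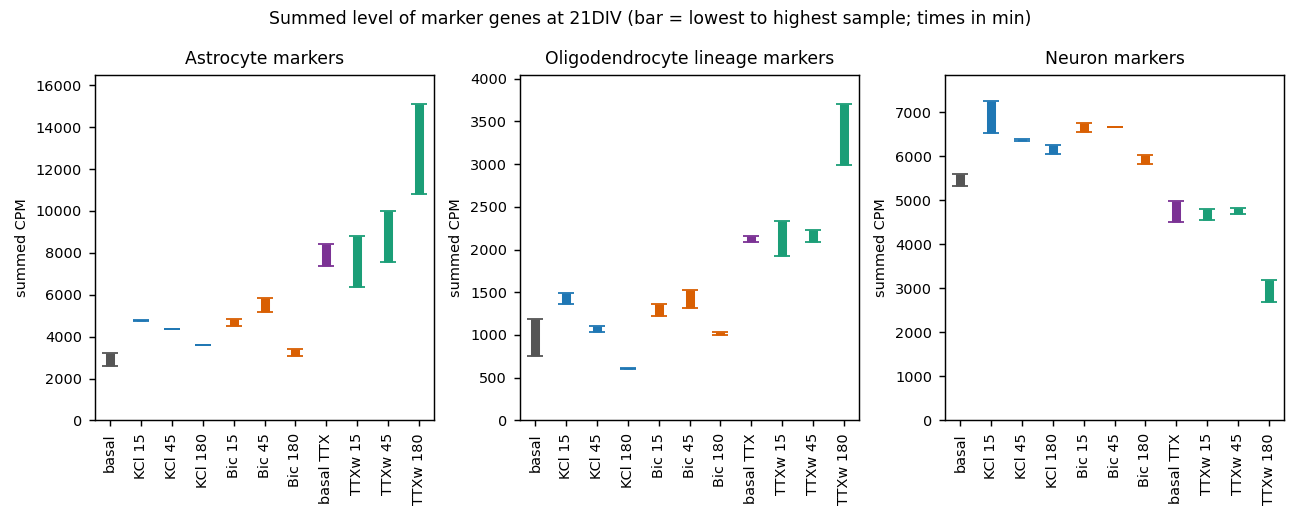
Summed CPM of 3 marker lists in the stimuli experiment, from the lowest to the highest sample of each condition, on a linear axis from 0. Astrocyte markers were lowest in basal samples (2610 to 3200 CPM) and highest 180 min after TTX withdrawal (10800 to 15100 CPM), where neuron markers were lowest (2680 to 3190 CPM).

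Early genes downstream of ERK rose under both stimuli. Of 11 tested, 5, 3 and 4 rose at 15, 45 and 180 min of KCl and 7, 8 and 8 at the same times of Bic, with 0 lower. Arc led at 45 min of Bic with a log2 fold change of 5.38, and Fosb led at 180 min with 3.34. Of the 8 other tested DUSP, SPRY and SPRED genes, Spred3 was called at 15 min of KCl (0.74) and 0 in the other 5 contrasts. Among receptors and adaptors Ntrk3, the receptor of neurotrophin 3, rose at 15 min of KCl (0.94) and at 15 and 45 min of Bic (0.83 and 0.90).

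KCl and Bic were then compared with each other at the same time. At 15 min 0 of the 8 genes differed, as did 0 of all 12027 genes tested (0%), and DESeq2 and the likelihood ratio test also called 0 of the 8. By the unadjusted p, 1 of the 8 was under 0.05, Spred2 with a log2 difference of 0.51 and an interval of 0.01 to 1.00. At 45 min Dusp1 was lower under KCl than under Bic by 1.93 on the log2 scale (SE 0.20, adjusted p = 2.78e-08), as 1 of 8 genes beside 0.682% of all genes. Every KCl sample lay below every Bic sample, 38.7 to 46.5 against 139 to 185 CPM. Spry4 and Dusp6 had lower values under KCl too, with log2 differences of -1.32 and -0.65 and adjusted p of 0.058 and 0.086. Without Bic 45 min replicate 1, the lower sample, both were called, at -1.67 and -0.88 with adjusted p of 0.0169 and 0.0269.

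At 180 min Dusp1 and Dusp14 were lower under KCl, by 0.94 (SE 0.21, adjusted p = 0.0191) and 1.05 (SE 0.25, adjusted p = 0.0289) in log2, 2 of 8 genes beside 0.732% of all genes. The samples did not overlap, with 49.8 and 52.5 against 97.8 and 99.4 CPM for Dusp1 and 24.9 and 32.5 against 61.6 and 59.1 CPM for Dusp14. Neither call held when any of the 4 samples was left out, with adjusted p between 0.0949 and 0.215 for Dusp1 and between 0.104 and 0.348 for Dusp14. Of 11 early genes, 8 were lower under KCl than under Bic at 45 min, led by Arc (-3.77), and 8 at 180 min, led by Egr4 (-2.29).

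TTX withdrawal gave a course of its own, measured against basal TTX. At 15 min 0 of 8 genes were called, as were 0 of all genes tested (0%), and 0 of the 8 had an unadjusted p under 0.05 or were called by DESeq2 or the likelihood ratio test. At 45 min only Dusp1 of the 8 was called, beside 0.382% of all genes. At 180 min Dusp4, Spry2 and Spry4 were called upward, 3 of 8 beside 14.0% of all genes and 7.33% upward.

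Dusp1 had 45.7 and 31.6 CPM 45 min after withdrawal, 11.3, 4.29 and 6.16 CPM at 15 min and 6.51, 9.41 and 8.31 CPM at 180 min. The samples at 45 min stood above every other sample taken after TTX, and the samples at 180 min overlapped those of basal TTX. The log2 fold change at 45 min was 2.19 (SE 0.25, adjusted p = 2.53e-07), the step up from 15 min 2.27 (SE 0.27, adjusted p = 6.74e-07) and the step down to 180 min -2.22 (SE 0.28, adjusted p = 3.27e-07). Of all genes, 0.266% were called in the step up and 12.3% in the step down. These 3 calls held whichever sample was left out. The 45-min level, 31.6 to 45.7 CPM, overlapped that of basal cultures never given TTX, 38.9 to 55.8 CPM.

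Dusp4 had 3.90, 7.53 and 20.4 CPM at 180 min of TTXw, from 6, 16 and 27 counts, against 1.16 to 4.31 CPM in basal TTX. The lowest of these lay inside the basal TTX range and replicate 3 stood far above the others. The log2 fold change was 1.89 (SE 0.49, adjusted p = 0.00467), and 1.14 with an adjusted p of 0.146 without replicate 3. Spry4 had 6.51, 6.59 and 12.1 CPM against 1.98 to 3.596 CPM, a log2 fold change of 1.52 (SE 0.43, adjusted p = 0.00876) that was 1.20 with an adjusted p of 0.0769 without replicate 3. Spry2 had 31.9, 31.5 and 36.2 CPM against 16.4 to 24.8 CPM. It rose by 0.67 on the log2 scale (SE 0.21, adjusted p = 0.0203), a call of Spry2 lost without basal TTX replicate 1 (adjusted p = 0.0595), basal TTX replicate 3 (0.0605) or TTXw 180 min replicate 3 (0.0731).

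The other 4 tested genes were not called after withdrawal. Dusp6 had 11.7, 16.0 and 29.4 CPM at 180 min of TTXw, and 17.6 and 24.4 CPM at 45 min, well under the 69.7 CPM of the lowest basal sample. Its log2 fold changes at 180 and 45 min, 0.58 and 0.78, had adjusted p of 0.0992 and 0.266. Both samples at 45 min lay above the 9.92 to 14.4 CPM of basal TTX, and without TTXw 180 min replicate 1 the 180-min value of Dusp6 was called (0.81, adjusted p = 0.0247). Spred1 kept log2 fold changes between -0.12 and 0.09, Spred2 between -0.13 and 0.24, and Dusp14 between -0.34 and -0.03 at the 3 times. The step of Dusp4 from 45 to 180 min was called (1.77, SE 0.59, adjusted p = 0.0355), but not without TTXw 180 min replicate 3 (adjusted p = 0.293), TTXw 45 min replicate 1 (0.212) or TTXw 45 min replicate 3 (0.113).

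Marker genes shifted at 180 min of TTXw as well. Astrocyte markers summed to 10800 to 15100 CPM against 7370 to 8420 CPM in basal TTX, with 5 of 10 higher, and neuron markers to 2680 to 3190 against 4500 to 4990 CPM, with 5 of 9 lower. Of the oligodendrocyte lineage 5 of 8 markers were higher, with sums of 2990 to 3700 CPM. At 45 min 0 astrocyte and 0 neuron markers were called. Their part in the calls at 180 min was not tested. Of 11 early genes 6 rose at 45 min, led by Fos (4.15), and 8 at 180 min, led by Fosb (1.92), with 0 lower. Dusp2, another nuclear phosphatase, rose by 1.55 on the log2 scale at 180 min, and Dusp8 fell by 0.63.

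The responses to TTXw were also tested against those to KCl and Bic, each relative to its own control. At 15 min the TTXw response was lower than the KCl response for Dusp6 (-1.14, SE 0.32, adjusted p = 0.0295), Spry2 (-1.01, SE 0.30, adjusted p = 0.0426) and Spred1 (-0.81, SE 0.18, adjusted p = 0.00466), 3 of 8 beside 4.08% of all genes. Against Bic it was lower for Dusp6 (-1.26, adjusted p = 0.0244) and Spry2 (-1.11, adjusted p = 0.0411), 2 of 8 beside 2.01%. Against Bic, Spred1 was called without basal replicate 2 or basal TTX replicate 1 or 2 (-0.68, -0.66 and -0.67, adjusted p = 0.0455, 0.0427 and 0.0381), and Dusp1 without TTXw replicate 1 (-1.58, adjusted p = 0.0391). The Spred1 difference from KCl held whichever sample was left out. Those of Dusp6 were lost in 6 of 12 and those of Spry2 in 8 of 12 such fits, the highest adjusted p being 0.0962 and 0.25. For Dusp6 these were the fits without basal replicate 5, basal TTX replicate 3 or 4, TTXw 15 min replicate 1 or 3, and KCl replicate 2 or Bic replicate 3. For Spry2 they were those without basal replicate 2 or 5, basal TTX replicate 2 or 4, any TTXw 15 min sample, and KCl replicate 2 or Bic replicate 3.

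At 45 min the Dusp1 response to TTXw exceeded that to KCl by 2.26 on the log2 scale (SE 0.32, adjusted p = 6.25e-05), as 1 of 8 genes beside 0.233% of all genes, and held whichever sample was left out. The Dusp1 levels themselves overlapped, with 31.6 to 45.7 CPM at 45 min of TTXw and 38.7 to 46.5 CPM at 45 min of KCl. The controls differed, with means of 8.22 CPM in basal TTX and 44.75 CPM in basal samples. Between TTXw and Bic at 45 min 0 of 8 genes were called (1.81% of all genes), with 4 at an unadjusted p under 0.05, 0 calls by the likelihood ratio test and 1 by DESeq2, Spred1, and the Dusp1 responses differed by 0.33, with an interval from -0.30 to 0.96. At 180 min Dusp1 and Dusp14 responded less to TTXw than to Bic, by 1.17 (SE 0.36, adjusted p = 0.0335) and 1.05 (SE 0.28, adjusted p = 0.0131) in log2, 2 of 8 beside 9.75%. The Dusp1 difference was lost in 6 of 12 fits with a sample left out, those without basal replicate 1 or 2, basal TTX replicate 4, Bic replicate 2 or 3, or TTXw replicate 1, with adjusted p up to 0.0909. The Dusp14 difference held in all 12 such fits, but not with thinned counts (-1.17, adjusted p = 0.0776) or with the replicate number as a block (-0.89, adjusted p = 0.11). Against KCl at 180 min 0 of 8 were called by edgeR, DESeq2 or the likelihood ratio test, beside 8.31% of all genes, and 1, Spred1, had an unadjusted p under 0.05.

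**Figure D3:**
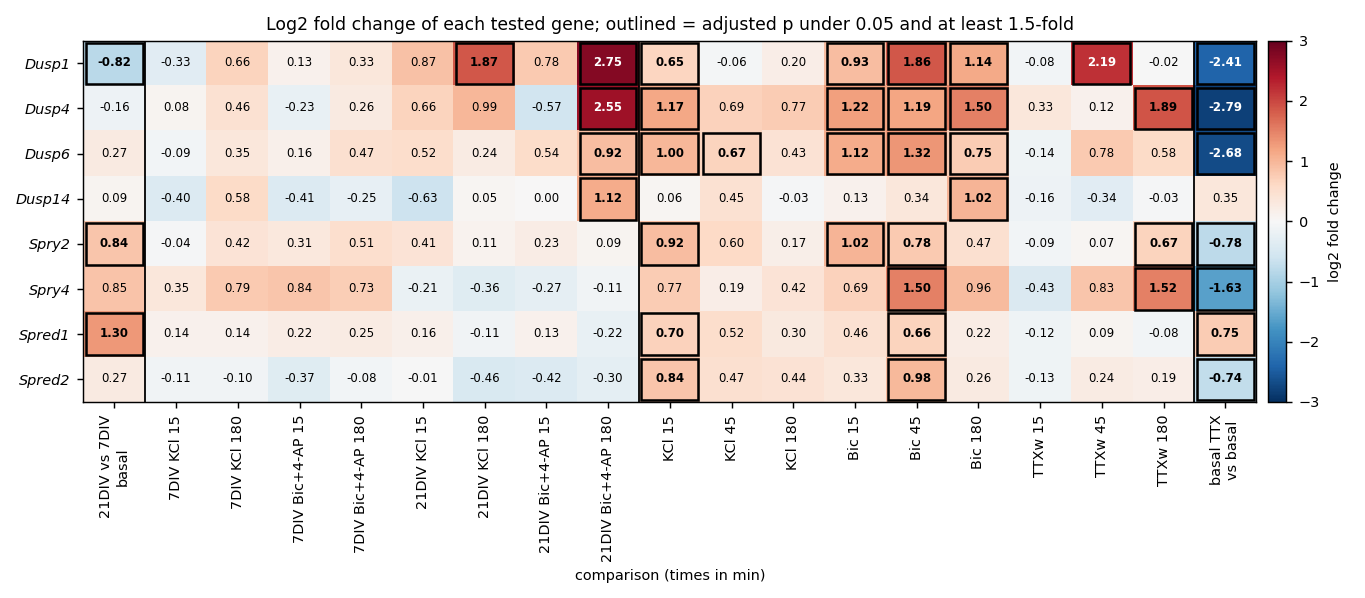
Log2 fold change of the 8 tested genes (rows) in 19 comparisons (columns), from blue (lower) to red (higher), with basal stages at the left, then the maturation and the stimuli experiment, the value in each cell and an outline where the adjusted p was under 0.05 and the change at least 1.5-fold. No cell of the 4 columns at 7DIV is outlined, and the column of TTX holds 6 lower and 1 higher call.

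Between the stages, basal levels were compared in the maturation experiment. Spred1 and Spry2 were higher and Dusp1 was lower at 21DIV than at 7DIV, 3 of 8 tested genes beside 33.1% of all 10510 genes tested. Spred1 had 43.4, 47.6 and 39.6 CPM at 7DIV and 98.3, 111 and 103 CPM at 21DIV. The stages were well apart, with a log2 fold change of 1.30 (SE 0.16, adjusted p = 2.48e-05). Spry2 had 16.98, 7.33 and 16.2 CPM at 7DIV and 25.5, 24.8 and 23.4 CPM at 21DIV (log2 fold change 0.84, SE 0.27, adjusted p = 0.0261), a call of Spry2 lost without 7DIV replicate 3 (adjusted p = 0.0777) or 21DIV replicate 2 (0.0571) or 3 (0.0552).

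Dusp1 had 32.5, 54.4 and 57.4 CPM at 7DIV and 25.8, 24.0 and 30.5 CPM at 21DIV, every older sample being lower. Its log2 fold change was -0.82 (SE 0.22, adjusted p = 0.0106), and -0.66 with an adjusted p of 0.0701 without 7DIV replicate 4. The other 5 genes were not called. Spry4 had a log2 difference of 0.85 with an interval from 0.00 to 1.69, and was called (1.13, adjusted p = 0.0415) without 21DIV replicate 3. The intervals of Dusp4, Dusp6, Dusp14 and Spred2 all included 0.

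Glial markers rose with stage. Of 10 tested astrocyte markers 9 were higher at 21DIV, with sums of 585 to 859 CPM at 7DIV and 4630 to 5650 CPM at 21DIV, and all 8 tested oligodendrocyte lineage markers were higher (465 to 726 against 2400 to 3160 CPM). The astrocyte gene Gjb6 was at 0 in the basal samples at 7DIV. Of 9 neuron markers 6 were higher and 3 lower. Their part in the change of Spred1 and Spry2 was not tested. Of 11 early genes, 5 were higher and 3 lower at 21DIV, with Fosb (-2.85) and Fos (-2.23) lower and Arc (2.04) higher.

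At 7DIV 0 of the 8 genes were called for any of the 4 stimulations. All genes together gave 0% for KCl at 15 min and for Bic with 4-aminopyridine at both times, and 1.98% for KCl at 180 min. DESeq2 and the likelihood ratio test also called 0 of the 8. An unadjusted p under 0.05 was found for 0 genes at 15 min of KCl, for Spry4 (0.84) at 15 min of Bic with 4-aminopyridine, and for these at 180 min: Dusp1 (log2 fold change 0.66), Dusp6 (0.35), Dusp14 (0.58) and Spry4 (0.79) under KCl, and Dusp6 (0.47) and Spry4 (0.73) under Bic with 4-aminopyridine. Dusp14 had 40.98, 108 and 81.4 CPM at 180 min of KCl and 71.2, 41.5 and 41.5 CPM in basal samples, so that the groups overlapped. Without KCl replicate 1, the sample at 40.98 CPM, it was called with a log2 fold change of 0.87 (adjusted p = 0.0169). Early genes did respond at this stage, with 6 of 11 higher at 180 min of KCl, led by Junb (2.63) and Egr1 (2.29).

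At 21DIV of the same experiment the phosphatases responded at 180 min. Bic with 4-aminopyridine raised Dusp1, Dusp4, Dusp6 and Dusp14, 4 of 8 genes beside 14.2% of all genes (7.39% upward and 6.84% downward), and KCl raised Dusp1, 1 of 8 beside 4.89% (2.98% and 1.91%). At 15 min 0 of 8 were called under KCl (6.23% of all genes, 3.21% upward and 3.02% downward) or under Bic with 4-aminopyridine (0.0511%). At an unadjusted p under 0.05 there were 3 for KCl, with Dusp1 and Dusp6 higher and Dusp14 lower. For Bic with 4-aminopyridine there were 2, Dusp1 and Dusp6, both higher. DESeq2 and the likelihood ratio test each called 1 for KCl, Dusp1, and 0 for Bic with 4-aminopyridine. Dusp14 had 29.6 to 39.4 CPM at 15 min of KCl against 45.6 to 64.9 CPM in basal samples. At that time Dusp6 under KCl had an adjusted p of 0.0244 but a change of 1.43-fold, and Dusp1 an adjusted p of 0.0521. No SPRY or SPRED gene was called in the maturation experiment under any stimulus.

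Under Bic with 4-aminopyridine Dusp1 had 186 and 177 CPM at 180 min and 24.0 to 30.5 CPM in basal samples, a 6.75-fold rise (log2 2.75, SE 0.31, adjusted p = 4.22e-07). Dusp4 had 57.4 and 46.2 CPM against 7.58 to 9.58 CPM (log2 fold change 2.55, SE 0.44, adjusted p = 0.000157). Both pairs of samples were far above basal, and both calls held whichever sample was left out. Dusp14 had 121 and 113 CPM against 45.6 to 64.9 CPM (1.12, SE 0.23, adjusted p = 0.00125). Dusp6 had 114 and 121 CPM against 57.9 to 64.9 CPM (0.92, SE 0.16, adjusted p = 0.000198), and these calls too held in every such fit.

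KCl at 180 min gave Dusp1 values of 40.3, 138 and 118 CPM, all above the basal samples but with replicate 1 far below the others. The log2 fold change was 1.87 (SE 0.28, adjusted p = 0.000156), and without replicate 1 it was 2.24. Dusp4 was also lowest in replicate 1, with 8.33, 20.8 and 24.0 CPM, and its replicate 1 lay inside the basal range. Dusp4 was not called (0.99, adjusted p = 0.152), but was without replicate 1 (1.33, adjusted p = 0.0382). Dusp5, a nuclear phosphatase of ERK, had 2, 18 and 1 counts in these 3 samples, and the 18 counts, 3.34 CPM, were its highest level in the series.

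**Figure D4:**
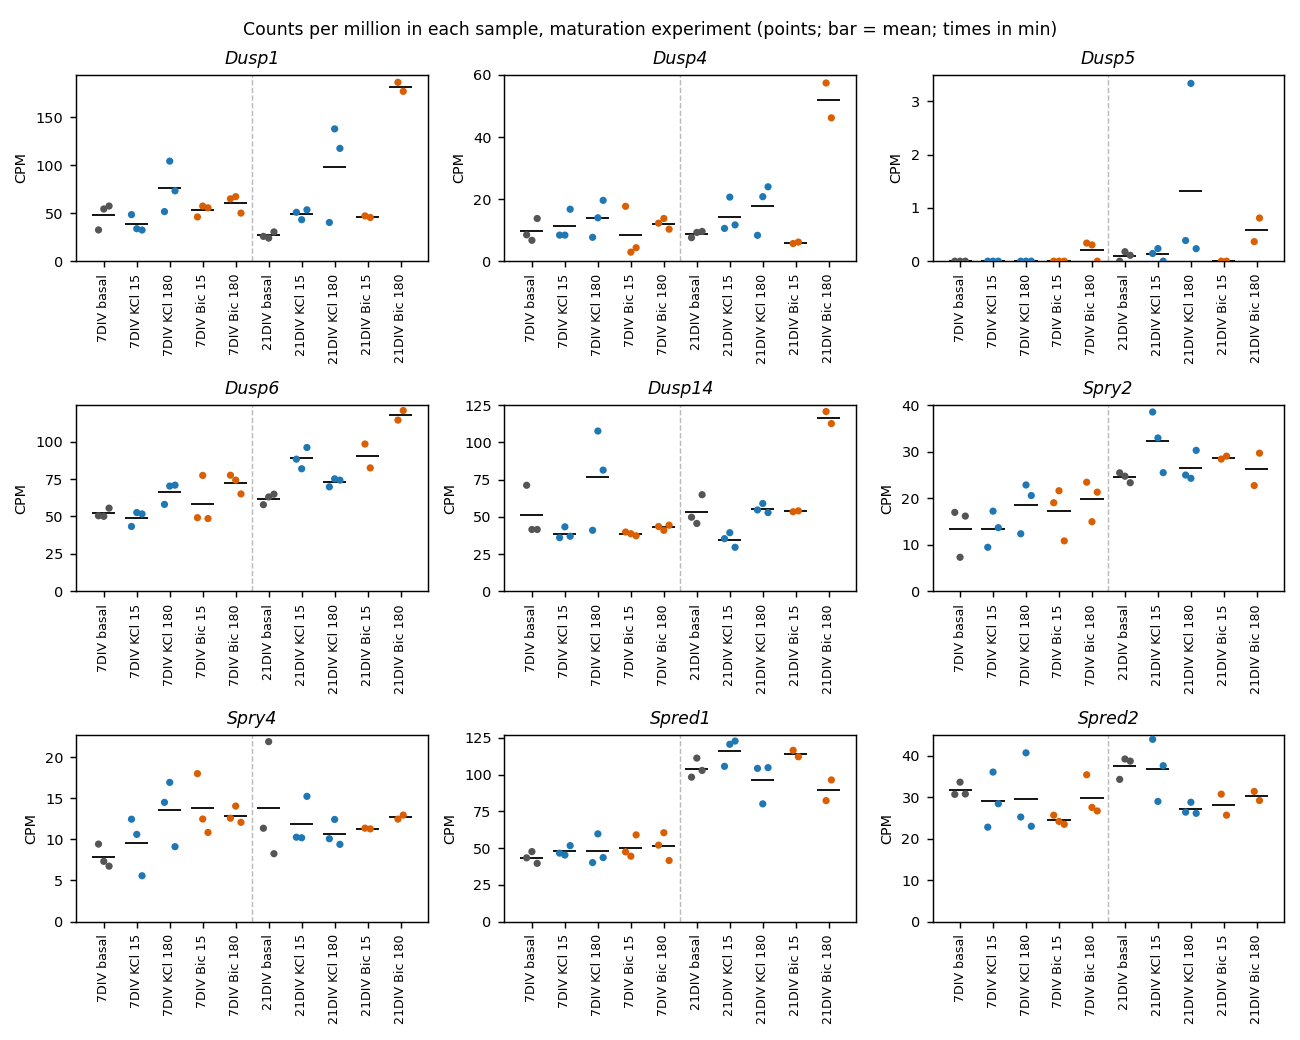
Level of the 9 genes in the maturation experiment, as CPM (linear axis from 0) against condition, 7DIV left and 21DIV right of the dashed line, with points for samples, a bar for the mean, times in min, and Bic given together with 4-aminopyridine. Dusp1, Dusp4 and Dusp14 stood highest at 180 min of Bic at 21DIV (Dusp1 at 177 and 186 CPM), and Spred1 was higher at 21DIV than at 7DIV in every condition.

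Marker levels moved here too, in the other direction. At 180 min of Bic with 4-aminopyridine the astrocyte markers summed to 1760 to 3370 CPM against 4630 to 5650 CPM in basal samples, 3 of 10 being lower. The oligodendrocyte lineage list summed to 1020 to 1650 against 2400 to 3160 CPM, with 3 of 8 lower and 1 higher. Of the microglia list 2 of 3 tested markers were higher (4.27 to 8.95 CPM in sum in basal samples and 19.8 to 20.5 CPM after Bic), and of the neuron list 1 was higher and 3 were lower (5170 to 6070 and 4580 to 4800 CPM). Their part in the calls was not tested. Among other genes, 7 of 11 early genes rose, led by Fos (4.33) and Fosb (4.28), and Mknk2, a kinase activated by ERK and p38, rose by 1.96 on the log2 scale. Dusp7, an ERK phosphatase of the cytoplasm like Dusp6, was 1.66 lower.

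The difference between stages in the response was tested directly. For Bic with 4-aminopyridine at 180 min it was called for Dusp1 (log2 difference of the responses 2.42, SE 0.43, adjusted p = 0.0011), Dusp4 (2.29, SE 0.64, adjusted p = 0.0344) and Dusp14 (1.38, SE 0.33, adjusted p = 0.0141), 3 of 8 genes beside 4.95% of all genes (2.58% with the larger and 2.38% with the smaller value at 21DIV). Each response was larger at 21DIV. The Dusp1 difference held whichever sample was left out. That of Dusp14 was lost without 21DIV Bic replicate 2 (1.32, adjusted p = 0.0787) or 7DIV basal replicate 2 (1.06, adjusted p = 0.0669). That of Dusp4 was lost in 9 of 11 such fits, with adjusted p up to 0.147, and held only without 21DIV basal replicate 1 or 7DIV basal replicate 3. Dusp4 also lost it with counts summed over transcripts (adjusted p = 0.0895) and with thinned counts (0.147). Dusp4 has 1 transcript, so summing left its own counts unchanged and altered only other genes and the library sizes. For KCl 0 of 8 were called at 15 min (2.03% of all genes) or at 180 min (0.775%, 0.434% with the larger and 0.341% with the smaller value at 21DIV), and for Bic with 4-aminopyridine at 15 min 0 of 8 (0.00851%). DESeq2 and the likelihood ratio test called 0 in these 3 contrasts as well. The unadjusted p was under 0.05 for 2 (Dusp1 and Dusp6), 2 (Dusp1 and Spry4) and 1 (Spry4) of the genes. In these cases the 21DIV response was the larger for Dusp1 and Dusp6 and the smaller for Spry4. Without 21DIV KCl 180 min replicate 1, the sample far below the others, Dusp1 was called for KCl at 180 min, with 1.58 (adjusted p = 0.00569) in place of 1.21 (adjusted p = 0.161).

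The other 5 tested genes were not called in any test of a difference in response between stages. For Bic with 4-aminopyridine at 180 min the log2 difference of Dusp6 was 0.45 with an interval from -0.01 to 0.92. Spry2, Spry4, Spred1 and Spred2 had values of -0.42, -0.84, -0.47 and -0.22, so that their responses were not shown to be larger at 21DIV. Of 11 early genes 7 responded more at 21DIV, led by Fosb (4.56) and Fos (3.64).

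**Figure D5:**
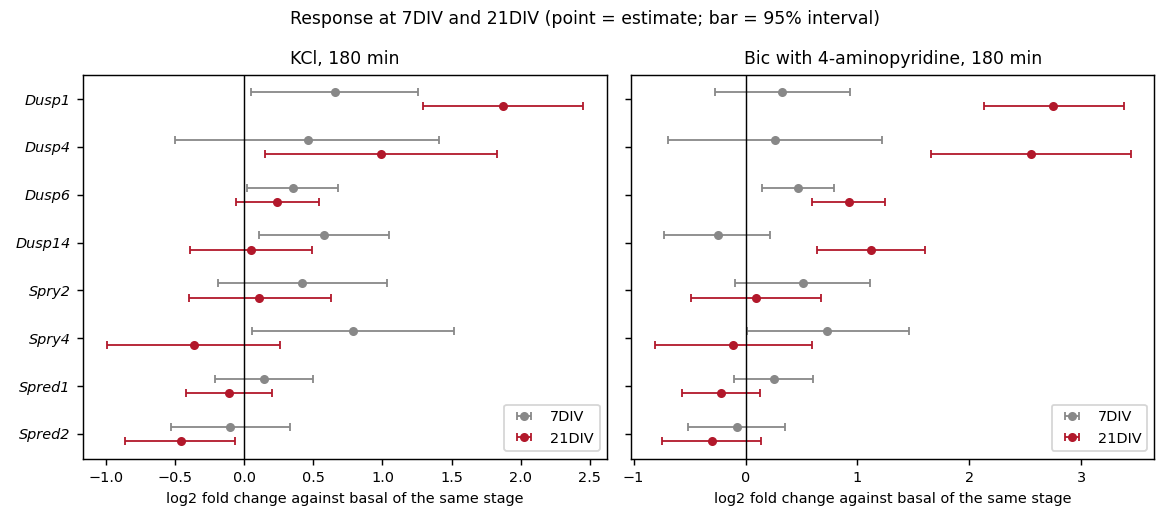
Response of the 8 tested genes to KCl (left) and to Bic with 4-aminopyridine (right) at 180 min, as log2 fold change against basal samples of the same stage, grey for 7DIV and red for 21DIV, with 95% intervals. Under Bic with 4-aminopyridine the intervals of the 2 stages do not overlap for Dusp1, Dusp4 and Dusp14, with estimates of 0.33 and 2.75, 0.26 and 2.55, and -0.25 and 1.12.

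From 15 to 180 min within a stimulus, Bic with 4-aminopyridine at 21DIV raised Dusp1 (log2 change 1.97, SE 0.36, adjusted p = 0.000436), Dusp4 (3.12, SE 0.58, adjusted p = 0.000548) and Dusp14 (1.12, SE 0.27, adjusted p = 0.00672), 3 of 8 beside 12.2% of all genes. Dusp4 had 5.69 and 6.16 CPM at 15 min, from 10 and 18 counts. The Dusp14 change was lost without 15 min replicate 1 (adjusted p = 0.0562) or 2 (0.0503), or 180 min replicate 2 (0.0616). At 7DIV KCl raised Dusp14 from 15 to 180 min (0.98, SE 0.23, adjusted p = 0.0137), 1 of 8 beside 2.71%, though its samples overlapped, and Dusp14 lost that call without 15 min replicate 1 (0.0827) or 3 (0.0616), or 180 min replicate 2 (0.19) or 3 (0.0672). Without 180 min replicate 1, the 7DIV change of Dusp1 under KCl was called too (1.19, adjusted p = 0.0325). For KCl at 21DIV 0 of 8 were called (0.902% of all genes), with Dusp1 at a log2 change of 1.00 and an adjusted p of 0.0697. There 3 genes had an unadjusted p under 0.05, and DESeq2 and the likelihood ratio test each called 1, Dusp1. Without 180 min replicate 1 this change of Dusp1 was 1.38 (adjusted p = 0.000641). For Bic with 4-aminopyridine at 7DIV 0 of 8 were called (0%) by edgeR, DESeq2 or the likelihood ratio test, and 0 had an unadjusted p under 0.05.

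KCl was given at 21DIV in both experiments, which were normalised separately, and the values are set side by side without a test. At 15 min the log2 fold changes in the maturation and stimuli experiments were 0.87 and 0.65 for Dusp1, 0.66 and 1.17 for Dusp4 and 0.52 and 1.00 for Dusp6. They were 0.41 and 0.92 for Spry2, 0.16 and 0.70 for Spred1 and -0.01 and 0.84 for Spred2. Dusp14 had means of 34.8 CPM at 15 min of KCl and 53.4 CPM in basal samples of the maturation experiment, and 30.8 and 29.8 CPM in the stimuli experiment. For Spry4 these means were 11.9 and 13.8 CPM, and 14.9 and 8.78 CPM. At 180 min the log2 fold change of Dusp1 was 1.87 in the maturation and 0.20 in the stimuli experiment. Astrocyte markers summed to 4170 to 4740 CPM at 15 min of KCl against 4630 to 5650 CPM in basal samples of the maturation experiment, and to 4730 to 4770 against 2610 to 3200 CPM in the stimuli experiment.

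Over the 11 condition means of the stimuli experiment, which share a scaling and rest on 2 to 4 samples each, most of the set varied together. As a description, the Pearson r of log2 CPM was 0.97 for Dusp4 and Dusp6, 0.96 for Dusp6 and Spred2, 0.94 for Dusp4 and Spry4 and 0.92 for Dusp1 and Dusp6. Over the 7 conditions without TTX these were 0.82, 0.77, 0.81 and 0.79, and that of Dusp1 and Spry4 was 0.97. Dusp6 and Spry2 had 0.93 over all and 0.92 without TTX. Other pairs fell further, from 0.92 to 0.53 for Dusp4 and Spred2 and from 0.88 to 0.56 for Dusp1 and Spred2. Spry2 and Spry4 fell from 0.9 to 0.58, so part of the shared variation lay between TTX and other conditions. Spred1 had r between -0.49 and -0.11 with the other 7 genes over the 11 conditions. Over the 7 without TTX, it had 0.92 with Spred2, 0.85 with Dusp6 and -0.07 with Dusp14. Dusp14 had r between -0.11 and 0.21 with every other gene over the 11 conditions.

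The genes most like each one over these 11 means were found among 9318 genes. For Dusp1 they were Plppr4 (r = 0.960), Gm34921 (0.957) and Npas4 (0.950), an early transcription factor of neurons, with 0.65, 0.92 and 0.93 over the 7 conditions without TTX. For Dusp4 they were Rgs2 (0.994), a regulator of G protein signalling, Fosl2 (0.993), a Fos-related factor, and Smyd2 (0.985). For Dusp6 they were Prkar2a (0.992), Dgkz (0.990) and Hunk (0.990). For Spry2 they were Pdgfa (0.988), Zfp143 (0.984) and Ube2f (0.983), and for Spry4 Emd (0.978), Cry1 (0.959) and Rasl11a (0.958). For Spred2 they were Rtn4 (0.978), B230216N24Rik (0.972) and Vgll2 (0.971), and for Spred1 they included Krt73 (0.944) and Thrsp (0.914). Dusp14 had no gene so close, the highest being Cisd2 (0.803), Timm10 (0.797) and Atp5j (0.795).

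In the order of the 11 condition means, Dusp1 was highest at 45 min of Bic (mean 162 CPM) and lowest at 15 min of TTXw (7.24 CPM). Of its 10 pairs of neighbours in that order, 5 did not overlap. The 3 times of Bic, 15 min of KCl and 45 min of TTXw each stood clear of the next condition, whereas basal, KCl at 45 min and KCl at 180 min overlapped in part, as did basal TTX with TTXw at 15 and 180 min. Spred1 was highest at 45 min of TTXw (mean 302 CPM) and lowest in basal samples (169 CPM), with 7 of 10 neighbours overlapping. For Dusp4, Spry2 and Spry4 8 of 10 neighbours overlapped, for Dusp14 9 of 10, and for Dusp6 and Spred2 5 of 10. Dusp5 had counts in 8 of 27 samples of the stimuli experiment and in 11 of 28 of the maturation experiment, all of its conditions overlapping in the former.

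By position in GRCm38, the set is spread over the genome. Dusp1 spans chr17:26505591-26508472, Dusp4 chr8:34807610-34819894, Dusp5 chr19:53529145-53541809 and Dusp6 chr10:99263231-99267489. Dusp14 spans chr11:84048033-84069256, Spred2 chr11:19924442-20024026, Spry2 chr14:105891947-105896819 and Spred1 chr2:117121071-117182279. The libraries count the 3′ ends of transcripts, so that exon use within these genes was not measured.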

How the data were processed

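Libraries of 3′ ends followed the CEL-Seq2 protocol. STAR was used for alignment to mm10 and the End Sequence Analysis Toolkit for quantification. The values deposited by the authors are raw counts, whole numbers per RefSeq transcript with no scaling. Whether reads were collapsed by molecular identifier is not given in the sources used here, so the counts carry an unknown share of copies.

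RefSeq accessions were matched to symbols of GRCm38 (80.8% of 97700 and 80.9% of 96722 transcripts). The unmatched transcripts, with 18.5% and 19.2% of the counts, were not used. Samples were grouped by their titles. The header of 1 column (TTXw, 180 min, replicate 1) reads 2DIV where the label of its sample reads 21DIV. The basal sample of the stimuli experiment titled replicate 5 has replicate number 2 in its column header, as has another basal sample. The number in the title was used. Genes over 5 CPM in at least 2 samples were normalised by TMM and tested with edgeR 4.0.16 (R 4.3.3), the basal stages on their 6 samples and all else in 1 fit per experiment with a group per condition. The filter and thresholds follow the study's methods, which name both edgeR and DESeq2. The study applied TMM for each time point, whereas here it was applied over all samples of a fit. Replicates differed by more than counting noise in all 48 pairs (chi-square per degree of freedom 2.077 to 17.98). The main test was also run on simulated counts, for contrasts of a stimulus with its control only, and the outcome is not given here. Differences between responses were not simulated. Alternatives were the likelihood ratio test, DESeq2 1.42.0, RLE factors, no filter, filterByExpr, thinned counts, summed transcripts, fits on other samples, a replicate block and each replicate left out.

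All 9 genes were looked at in each comparison, whatever their values, but not every value is printed. Up to 4 called genes are named per pathway list. One of the genes most like Spred1 is not reported here. The genes and lists were chosen with earlier results of these data known. The correlations without TTX conditions were chosen after the data were seen.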

Additional observations from a re-analysis of the deposited data

Results flagged for a closer look

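The response to Bic with 4-aminopyridine at 180 min differed between 21DIV and 7DIV for 3 genes, by an interaction test over all 28 samples of the maturation experiment. The log2 difference of the responses was 2.42 for Dusp1, 2.29 for Dusp4 and 1.38 for Dusp14. The Dusp1 difference was called in all 11 fits with a sample left out, that of Dusp14 in 9 of 11 and that of Dusp4 in 2 of 11. Dusp4 also lost it in 3 of 9 other settings. For Dusp1 the 21DIV samples had 186 and 177 CPM against 24.0 to 30.5 CPM in basal samples, and the 7DIV samples 65.0, 67.2 and 50.1 CPM against 32.5 to 57.4 CPM. In the 8 groups of 4 samples, the basal TTX level of each tested gene, no sample stood apart by Dixon's test, which flags about 1 such group in 20 by chance. The cause of the differences between stages was not tested.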

How the results depend on the processing

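Results of single genes in single comparisons kept their side of the threshold in 2163 cases with a replicate left out, and 16 calls were gained and 101 lost. Under the other alternatives 2926 results were kept, 33 calls gained and 63 lost, and no called value changed sign. Most of the kept results were not called in the main fit. Only a called result could be lost, so the 101 and 63 losses are to be read against the called results alone. The main fits called 3 results for the basal stages, 5 for stimuli, 3 between stages and 4 between times in the maturation experiment. In the stimuli experiment they called 26 for stimuli, 7 for TTX and 5 between times. There 3 more were called between KCl and Bic, and 8 between TTXw and the other stimuli. Without the filter on low counts the calls of stimuli against basal in the maturation experiment numbered 9 in place of 5, those between stages 5 in place of 3 and those between times 7 in place of 4. In the stimuli experiment, counts summed over transcripts and thinned counts each gave 2 calls in place of 5 between consecutive times, 1 in place of 3 between KCl and Bic, and 4 in place of 8 between TTXw and the other stimuli. Between KCl and Bic the likelihood ratio test and the fit without a filter gave 5. The cause was not tested.

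With each replicate left out in turn, the calls ranged from 2 to 3 for the basal stages, 5 to 8 for stimuli and 3 to 6 for times in the maturation experiment, and 1 to 5 for differences between stages. In the stimuli experiment they ranged from 22 to 27 for stimuli, 6 to 7 for TTX, 1 to 5 between KCl and Bic, 3 to 9 between TTXw and the other stimuli and 3 to 7 between times. A lone sample left in a condition was then assumed to vary like the other conditions.

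No pairing of the samples by replicate number was seen. Same-numbered samples of different conditions had correlations of their deviations from -0.04 to 0.03 at 7DIV, -0.25 to 0.11 at 21DIV and -0.09 to 0.10 in the stimuli experiment. Differently numbered samples had -0.06 to 0.05, -0.17 to 0.17 and -0.1 to 0.1. Deviations from the means of so few samples are noisy, so these values cannot exclude that same-numbered samples shared a dissection. With the replicate number as a block, 3 calls in place of 8 were left between TTXw and the other stimuli. For stimuli against their controls 19 in place of 26 were left, for TTX 6 in place of 7 and for the basal stages 2 in place of 3. In the stimuli experiment only a basal sample had number 5 and only a basal TTX sample number 4. Between the basal stages, number 4 occurred only at 7DIV and number 1 only at 21DIV. The block takes such a sample out of the comparison, so these losses do not test pairing alone.

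Low counts limit Dusp4 and Spry4 after TTX, with 2 to 12 counts of Dusp4 in a basal TTX sample, and Dusp5 throughout. Most conditions of the stimuli experiment had 2 samples.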
